A study of Homo sapiens with 40 samples.

Results

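The change in RNA levels that followed Cas9 induction in IGF2BP2-targeted cells was set against the change that followed induction in control cells, gene by gene. The comparison used 16 of the 40 libraries of the series, in 4 groups of 4 libraries. All came from RKO, an established human colorectal carcinoma line that carried GFP and a doxycycline-inducible Cas9, the nuclease that cuts DNA where a guide RNA matches. The sgIGF2BP2 line carried a pair of guides against IGF2BP2 and the sgAAVS1 line a pair against AAVS1, a non-coding locus that serves as a cutting control, each from a lentiviral vector that also expressed a blue fluorescent protein. Cells received doxycycline (Dox) at 250 ng/mL for 72 hours, or DMSO as the uninduced control, and every well was given the nucleoside 4-thiouridine (s4U) at 250 µM for 2 hours before harvest. The members were the 11428 genes of the count table that passed the filter on low counts, out of 19962 listed. For each, the Dox effect is the log2 fold change of Dox over DMSO within 1 line, and the difference is the effect in sgIGF2BP2 cells minus that in sgAAVS1 cells.

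Each guide line was 1 population of transduced cells sorted for the fluorescent marker, and the 4 libraries of a group came from 4 wells, so that p-values measure only the spread between wells. The guides and any other way in which the lines differ cannot be told apart, and Dox itself and Cas9 cutting were given together in both lines. Counts hold reads of edited and unedited transcripts alike. In bulk RNA, fewer cells of a kind and less RNA per cell cannot be told apart.

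IGF2BP2 is an RNA-binding protein that attaches to mRNAs in the cytoplasm and is known for raising the stability and translation of many of them. It belongs to a family of oncofetal proteins with IGF2BP1 and IGF2BP3. A cut made by Cas9 is repaired as a DNA double-strand break, which is known to activate the transcription factor p53, and p53 targets slow the cell cycle or promote repair and cell death. That response is the reason why a line with a cut at a neutral locus is a usual control for a knockout.

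The guides are shown because they set which loci were cut in each line. Each site is given 5′ to 3′ in the orientation of the guide, with the adjacent 3-base motif (PAM) that Cas9 requires in capitals.
IGF2BP2 guide 1: atatgtgacgttgacaacggCGG
IGF2BP2 guide 2: gtgcgctgaggttcaaccctGGG
AAVS1 guide 1: cgctgtgccccgatgcacacTGG
Guide 1 against IGF2BP2 lay in coding sequence of exon 5 of 16 (chr3:185692722-185692741, GRCh38), and guide 2 in coding sequence of exon 10 (chr3:185672630-185672649). Both read antisense to the transcript. Transcript matches across exon junctions, and those on a single further chromosome, were not kept in the search. Among those kept, guide 1 had near matches in the pseudogenes AC244394.1 on chromosome 1 and AC020629.1 on chromosome 12, each with G19A (positions counted from 1 at the 5′ end of the guide). Both were followed by a PAM of the form NGG (N is any base), TGG in AC244394.1 and CGG in AC020629.1. Whether these sites were cut was not tested. The first AAVS1 guide lay at chr19:55117789-55117808 (GRCh38.p14, RefSeq), 171 bases before the RefSeq start of PPP1R12C, the gene that houses the AAVS1 locus.

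The second AAVS1 guide was ggcgcgtcgctcgctcgctc, and it was not placed among the sequences used here. Among 35116 RefSeq promoters of 300 bases it had no match with at most 3 mismatches that was followed by NGG. The nearest of the transcript matches kept lay in exon 1 of PAFAH1B2 on chromosome 11, with C10G and the motif GGT in place of NGG. PAFAH1B2, a subunit of a platelet-activating factor hydrolase, had a Dox effect of 0.019 in sgAAVS1 cells (edgeR adjusted p = 0.799).

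Library totals ran from 10018181 to 24822807 counts, and the spread between wells was small, with a common coefficient of biological variation of 3.79%. The epithelial markers KRT8, KRT18, EPCAM and CDX2 were present in all 16 libraries, at 12.3 CPM (the usual scaling of counts to library size) or more, whereas KRT19, CDH1 and VIL1 had at most 4 counts. Markers of fibroblasts, immune cells and endothelium had at most 11 counts, except CD68 at 1.11 to 3.01 CPM. Replicate 2 of sgIGF2BP2 with Dox stood apart by its share of mitochondrial counts, 5.86% against 6.99% to 9.12% in the other 15 libraries. Replicate pairs of a group differed by more than sampling noise in all 24 pairs, with a chi-square per gene of 1.56 to 16.6, and the 3 highest values involved that library.

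The target gene was read in every library first, as a check of the labels. Within 1 line, the 4 Dox libraries of a gene lay wholly above or below the 4 DMSO libraries for 18% of all genes tested in sgIGF2BP2 cells (8.92% above, 9.13% below) and for 17.5% in sgAAVS1 cells (8.04% above, 9.48% below), against which the statements on overlap below may be read. In sgIGF2BP2 cells IGF2BP2 stood at 83.8, 84, 86.5 and 86.7 CPM with DMSO and 34.5, 33.5, 38 and 29.5 CPM with Dox. In sgAAVS1 cells it stood at 88.9, 89.2, 84.7 and 93.9 CPM with DMSO and 97.8, 90.1, 99.9 and 94.3 CPM with Dox. The Dox libraries of the sgIGF2BP2 line lay below all others, while the sgAAVS1 groups overlapped. By edgeR's quasi-likelihood test with Benjamini-Hochberg adjustment over all 11428 genes, the difference was −1.44 ± 0.068 (SE, edgeR adjusted p = 2.86e-27), and it came from the sgIGF2BP2 line, where the effect was −1.34 ± 0.051 against 0.10 ± 0.044 in sgAAVS1 cells. The paralog IGF2BP3 was also lower: it stood at 185, 165, 181 and 184 CPM with DMSO and 155, 145, 151 and 153 CPM with Dox in sgIGF2BP2 cells, with no overlap. With 179, 158, 167 and 183 CPM with DMSO and 176, 185, 173 and 175 CPM with Dox in sgAAVS1 cells, where the groups overlapped, its difference was −0.29 ± 0.057 (SE, edgeR adjusted p = 0.000372). IGF2BP3 shares exon bases with MALSU1 on the other strand. The third member, IGF2BP1, never exceeded 1 count in a library and was not tested.

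**Figure D1:**
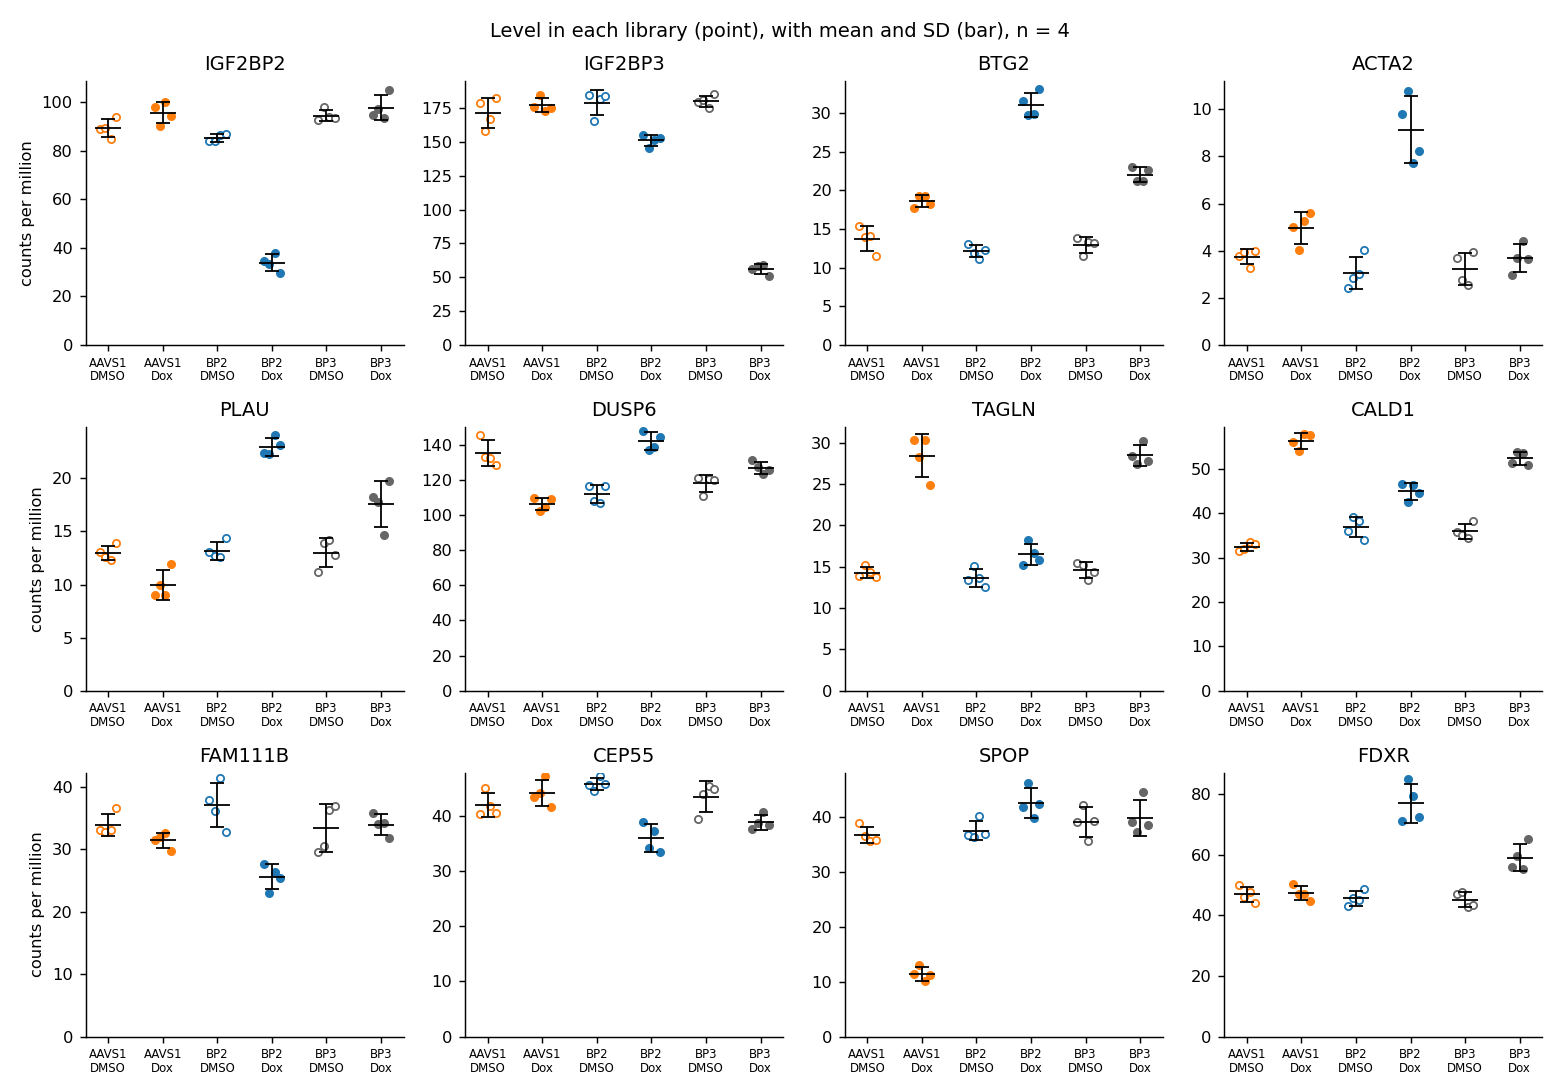
CPM (vertical axis, from 0) of 12 genes in each library of the sgAAVS1 (orange), sgIGF2BP2 (BP2, blue) and sgIGF2BP3 (BP3, grey) lines, open points for DMSO and filled points for Dox, with the mean and SD of 4 libraries as a black bar. IGF2BP2 falls to 29.5 to 38.0 CPM only in the Dox group of sgIGF2BP2, SPOP falls to 10.1 to 13.1 CPM only in that of sgAAVS1, and TAGLN rises further in sgAAVS1 and sgIGF2BP3 cells than in sgIGF2BP2 cells.

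Across all genes tested, 797 were called in the difference at an adjusted p under 0.05, which is 6.97% of them. Of these, 458 were higher (4.01%), meaning that Dox raised them more, or lowered them less, in sgIGF2BP2 than in sgAAVS1 cells, and 339 were lower (2.97%). Most differences were small: 48 genes differed at least 1.5-fold and 13 at least 2-fold, 11 of them higher. With an offset for GC content and transcript length in the fit, 335 were higher and 378 lower, and 469 of the 797 (58.8%) were called in the same direction in both fits. Single libraries moved these counts: without replicate 4 of sgAAVS1 with DMSO 643 genes were higher and 518 lower, without replicate 2 of that group 315 and 225, and without replicate 3 of sgIGF2BP2 with DMSO 328 and 206.

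The GC content of the transcripts moved with the difference. Outside the chromosome 17 segment described below, genes called higher had a median GC content of 57.9% and genes called lower 41.7%, against 48.3% over all genes tested. Over deciles of GC content among genes averaging a log2 CPM of 2 or more, the median difference ran from −0.098 in the lowest to 0.10 in the highest decile. In sgAAVS1 cells the median Dox effect ran from 0.070 down to −0.060 and in sgIGF2BP2 cells from −0.022 up to 0.036. The part of GC content in the calls of single genes was tested only through the offset above, with which the genes called higher and lower outside the segment had median GC contents of 49.6% and 51.4%.

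Each called gene was assigned to the line that drove its difference: the line with the Dox effect at least 2 times as large as in the other, or both lines when neither reached that ratio. Outside the chromosome 17 segment 709 genes were called, 6.34% of the 11177 tested there, 371 higher (3.32%) and 338 lower (3.02%). The sgIGF2BP2 line drove 321 of them, 151 higher and 170 lower. The sgAAVS1 line drove 168, 98 higher and 70 lower. Another 210 genes had effects of opposite sign in the 2 lines with neither at least 2 times the other: the effect was called in both lines for 39 of them, in sgIGF2BP2 alone for 61, in sgAAVS1 alone for 50 and in neither for 60. A further 10 had effects of the same sign, called in both lines. Of the genes assigned to the sgIGF2BP2 line, 297 had a Dox effect called in that line alone and 24 in both lines. A driver is a description by ratio and carries no test. When drivers were named by which line's effect was called, 44 rather than 210 genes had opposite effects in both. Without replicate 4 of sgAAVS1 with DMSO the sgAAVS1 count was 305 and the opposite-sign count 354, without replicate 2 of that group 98 and 128, and without replicate 3 of sgIGF2BP2 with DMSO 101 and 129. Without replicate 1 of the latter group the opposite-sign count was 135.

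The sgIGF2BP3 line, with guides against the paralog and the same Dox and s4U treatment, shares no library with the difference. Its Dox effect had the sign of the difference for 294 of the 321 genes driven by sgIGF2BP2 (91.6%) and for 112 of the 168 driven by sgAAVS1 (66.7%). Of all genes tested, 51.3% had an effect above 0 in sgIGF2BP3 cells. The sgIGF2BP3 effect lay nearer to the effect in sgIGF2BP2 than to that in sgAAVS1 cells for 156 of the 168 sgAAVS1-driven genes (92.9%) and for 107 of the 321 sgIGF2BP2-driven genes (33.3%), against 58.0% of all genes tested. These shares of nearness are largely fixed by the driver classes, since a gene with no response in sgIGF2BP3 cells lies nearer to the line with the smaller effect. Genes driven by sgIGF2BP2 and called higher had a median Dox effect of 0.33 in that line, −0.025 in sgAAVS1 and 0.13 in sgIGF2BP3 cells. Those called lower had medians of −0.24, 0.011 and −0.083 in the same order. None of these shares carries a test, and the sgIGF2BP3 and sgIGF2BP2 lines share the GC pattern in part, since the sgIGF2BP3 medians by GC decile also climbed, from −0.072 to 0.053.

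Depletion of IGF2BP2 by small interfering RNA (siRNA, 75 nM for 48 hours) in the sgIGF2BP2 line, set against a nontargeting siRNA, gave a second reading from other libraries, whose labels name no Dox. It lowered IGF2BP2 by 1.84 on the log2 scale, while its effect on IGF2BP3 was −0.040 ± 0.040 (SE, edgeR adjusted p = 0.456) and was not called. Its effect had the sign of the difference for 202 of the 321 sgIGF2BP2-driven genes (62.9%) and for 90 of the 168 sgAAVS1-driven genes (53.6%), while 52.1% of all tested genes had an effect above 0. Among the 321, siRNA moved 115 the same way and 67 the opposite way past the threshold, where 36.8% of all tested genes were called. Each library with siRNA against IGF2BP2 had a higher slope of level on GC content than any with the nontargeting siRNA. The part of GC content in these shares was not tested. Replicate 3 with siRNA against IGF2BP2 had the largest median deviation from its group of all libraries, 0.109 on the log2 scale.

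Among the gene lists, targets of p53 held the most genes called higher. Of 34 tested genes on a list of 37 p53 targets, 17 were called higher and 0 lower, against 4.01% higher among all genes tested, and at an unadjusted p under 0.05 edgeR had 20 higher and 1 lower. DESeq2 called 14 higher and 0 lower, with 5 left without an adjusted p. The median difference of the list was 0.24, against −0.0014 over all genes. The sgIGF2BP2 line drove 15 of the 17, and the other 2 rose in both lines. These counts include 2 tested genes of the chromosome 17 segment described below, of which FDXR was called higher. Within the lines, where Dox effects were called for 20.4% of all genes in sgIGF2BP2, 15.9% in sgAAVS1 and 2.64% in sgIGF2BP3 cells, 26 of the 34 rose in sgIGF2BP2 cells (background 10%) and 17 in sgAAVS1 cells (background 7.25%), with 0 falling in either, and the median Dox effects were 0.46 and 0.16. In sgIGF2BP3 cells 12 of the 34 rose and 0 fell, with a median of 0.18 (background 1.64% higher). With siRNA 8 rose and 9 fell, with a median of 0.02 (background 18.4% higher and 18.4% lower).

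BTG2, an antiproliferative gene, stood in sgIGF2BP2 cells at 13.1, 11.9, 11.2 and 12.3 CPM with DMSO and 31.5, 29.7, 29.9 and 33 CPM with Dox. In the sgAAVS1 line the values were 15.4, 14, 14 and 11.5 CPM with DMSO and 17.7, 19.3, 19.2 and 18.3 CPM with Dox. The groups did not overlap in either line, and the difference was 0.92 ± 0.11 (SE, edgeR adjusted p = 9.63e-09). BTG2 lies at chr1:203305491-203309602, forward strand. In sgIGF2BP3 cells, at 13.8, 11.5, 13.3 and 13.2 CPM with DMSO and 23, 21.2, 21.2 and 22.6 CPM with Dox, its effect was 0.77 ± 0.080, between those of the other lines.

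FDXR encodes ferredoxin reductase, a mitochondrial enzyme of electron transfer that is also a p53 target. It stood in sgIGF2BP2 cells at 43, 45.7, 45.1 and 48.7 CPM with DMSO and 71.1, 85, 79.3 and 72.6 CPM with Dox. In sgAAVS1 cells, at 50.0, 46.2, 47.6 and 44 CPM with DMSO and 50.3, 47.2, 47 and 44.8 CPM with Dox, the groups overlapped. The difference was 0.74 ± 0.080 (SE, edgeR adjusted p = 1.37e-10). FDXR (chr17:74862497-74873031, reverse strand) lies in the chromosome 17 segment, yet its effect in sgAAVS1 cells was 0.016, above the median of that segment.

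CDKN1A, the inhibitor of cyclin-dependent kinases known as p21, rose from 239 ± 7.40 to 341 ± 10.4 CPM in sgIGF2BP2 cells and from 255 ± 6.58 to 288 ± 8.69 CPM in sgAAVS1 cells (means ± SD, n = 4), for a difference of 0.34 ± 0.046 (SE, edgeR adjusted p = 3.19e-07). MDM2, the ubiquitin ligase that degrades p53, had a difference of 0.38 ± 0.065 (SE, edgeR adjusted p = 3.61e-05), with effects of 0.74 and 0.36. BBC3, which encodes the pro-apoptotic protein PUMA, rose in both lines, by 1.22 and 0.51 on the log2 scale, and its difference was 0.71 ± 0.15 (SE, edgeR adjusted p = 0.000756). GADD45A, DDB2, XPC and AEN, genes of DNA damage and repair, rose in sgIGF2BP2 cells by 0.54, 0.45, 0.37 and 0.46. Their effects in sgAAVS1 cells were −0.025, −0.0091, −0.040 and 0.029, and none of these passed the test.

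Other p53 targets moved in both lines without a called difference. GDF15, a stress-induced secreted factor, rose by 1.31 in sgIGF2BP2 and by 1.25 in sgAAVS1 cells, with a difference of 0.058 ± 0.18 (SE, edgeR adjusted p = 0.899). The death receptor FAS rose by 0.86 and 0.61, and its difference was 0.25 ± 0.10 (SE, edgeR adjusted p = 0.112). The error of the GDF15 difference leaves room for a difference of either sign.

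ACTA2, which encodes smooth muscle actin and is also a p53 target, stood in sgIGF2BP2 cells at 2.40, 2.83, 3.02 and 4.01 CPM with DMSO and 9.80, 10.8, 7.72 and 8.24 CPM with Dox. The sgAAVS1 libraries held it at 3.79, 3.93, 3.28 and 4.00 CPM with DMSO and 4.99, 4.01, 5.27 and 5.61 CPM with Dox. Both lines separated without overlap, the sgAAVS1 effect did not pass the test (edgeR adjusted p = 0.0948), and the difference was 1.18 ± 0.23 (SE, edgeR adjusted p = 0.000361). ACTA2 (chr10:88935074-88991339, reverse strand) shares 380 exon bases with FAS on the opposite strand. The number of p53 targets called higher was 15 to 18 when each library was left out in turn, and 17 without replicate 2 of sgIGF2BP2 with Dox, and all 17 were called higher with the GC and length offset too. SFN, which encodes a 14-3-3 protein, was called lower with that offset alone.

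Genes of the cell cycle held the most genes called lower among the lists. Of 36 genes on a list of E2F targets and cell cycle genes, all tested, 13 were called lower and 0 higher, against 2.97% lower among all genes. At an unadjusted p under 0.05 edgeR had 21 lower and 0 higher, and DESeq2 called 13 lower and 0 higher. The median difference was −0.13. The sgIGF2BP2 line drove 11 of the 13, and MCM4 and MCM7, subunits of the replicative helicase, fell in both lines. Of the 36, 1 lies in the chromosome 17 segment. In sgIGF2BP2 cells 34 of the 36 fell (background 10.4%), with a median effect of −0.27, and in sgAAVS1 cells 17 fell (background 8.68%), with a median of −0.11. In sgIGF2BP3 cells 3 fell and 0 rose (background 1.01% lower), with a median of −0.067. With siRNA 13 rose and 3 fell (background 18.4% higher and 18.4% lower), so that more of the list moved opposite to the Dox effect than with it.

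FAM111B, a protease gene regulated over the cell cycle, stood in sgIGF2BP2 cells at 37.9, 36.2, 41.4 and 32.8 CPM with DMSO and 27.7, 23, 26.4 and 25.4 CPM with Dox. In sgAAVS1 cells it stood at 33, 32.8, 33.1 and 36.6 CPM with DMSO and 31.5, 31.9, 32.6 and 29.8 CPM with Dox. Neither line's groups overlapped, the difference was −0.44 ± 0.10 (SE, edgeR adjusted p = 0.00211), and the sgAAVS1 effect did not pass the test (edgeR adjusted p = 0.293). CCNA2, which encodes cyclin A, stood in sgIGF2BP2 cells at 79, 72.5, 78.6 and 77.6 CPM with DMSO and 63.8, 60.0, 57.4 and 63.4 CPM with Dox. With 76.8, 76.5, 70.2 and 80.3 CPM with DMSO and 71.4, 76.6, 72.6 and 71.4 CPM with Dox in sgAAVS1 cells, where the groups overlapped, its difference was −0.27 ± 0.066 (SE, edgeR adjusted p = 0.00535).

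CEP55, a scaffold protein of the final step of cell division, was not on the list and stood among the lowest differences driven by sgIGF2BP2. It was at 45.6, 44.5, 47.1 and 45.8 CPM with DMSO and 38.8, 34.2, 37.2 and 33.5 CPM with Dox in that line, with no overlap. In sgAAVS1 cells it was at 40.3, 45, 41.8 and 40.4 CPM with DMSO and 43.4, 44.2, 47.1 and 41.6 CPM with Dox, with overlap, and the difference was −0.43 ± 0.074 (SE, edgeR adjusted p = 4.46e-05). The other genes named among the lowest by the same rule were KIF24, SLF1, POLE2, KIF14 and ANP32E. Their differences were −0.48 ± 0.11, −0.48 ± 0.12, −0.44 ± 0.11, −0.44 ± 0.089 and −0.42 ± 0.070 (± SE), with edgeR adjusted p from 1.66e-05 for ANP32E to 0.00995 for POLE2. The siRNA effects on KIF24, SLF1, FAM111B and KIF14 were 0.71, 0.22, 0.22 and −0.20, each past the threshold. Those on CEP55, POLE2 and ANP32E did not pass. KIF24 shares 143 exon bases with UBAP1 and CCNA2 254 with EXOSC9, both on the opposite strand. KIF14 and KIF24 are kinesins that act in cell division and at centrioles, POLE2 is a subunit of DNA polymerase epsilon, SLF1 is part of a DNA repair complex, and ANP32E is a histone chaperone.

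MKI67, the proliferation marker Ki-67, stood at 530, 560, 546 and 540 CPM with DMSO and 450, 347, 447 and 446 CPM with Dox in sgIGF2BP2 cells, and its fall was deepest in replicate 2. Its difference was −0.26 ± 0.069 (SE, edgeR adjusted p = 0.0101), and it did not pass without that library (−0.18, edgeR adjusted p = 0.0537). The list as a whole had 12 lower calls without that library, and 8 without replicate 3 of sgIGF2BP2 with DMSO. With the GC and length offset, 12 of the 13 were called lower again.

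Promoters of the cell cycle genes were searched for letters known to be bound at such genes, since members of the list moved together. The motifs were TTTGAA, the core of the cell cycle homology region, and TTTGGCGC and TTTCGCGC, forms of the E2F site, each on both strands of the 300 bases around the RefSeq start (250 before to 50 after). Shown are windows of MKI67, BUB1B and MCM7 with the motif in capitals.
MKI67: tagcgccagaaTTTGAAtcttcgttttc
MKI67: cttcgttttcgTTTGAAttgggcgggcg
BUB1B: ggaccgttaaaTTTGAAacttggcggct
MCM7: ggggggcgacgTTTCGCGCc
These are chr10:128126454-128126481 and chr10:128126436-128126463 on the reverse strand, chr15:40161035-40161062 on the forward strand and chr7:100101398-100101417 on the reverse strand (GRCh38.p14, RefSeq). TTTGAA was present in 38 of 143 promoters of genes driven by sgIGF2BP2 and called lower (26.6%), in 14 of 129 of those called higher (10.9%) and in 9.40% of 9360 promoters of tested genes. An E2F form was present in 14 of the 143 (9.79%), in 2 of the 129 (1.55%) and in 2.2% of all tested. Among all 27305 promoters the shares were 15.4% and 1.18%. In the cell cycle list TTTGAA was in 6 of 28 promoters and an E2F form in 9, and among the list's genes called lower in 3 and 2 of 9. Lower genes with opposite moves of both lines held TTTGAA in 13 of 80 promoters. TTTGAA is rich in A and T, the transcripts called lower had a median GC content of 41.7%, and the part of base composition in these shares was not tested.

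Another group held genes that answer to mitogen-activated protein kinase (MAPK) signalling: the dual-specificity phosphatases and Sprouty proteins, which dampen that pathway, and immediate early transcription factors. Of 25 listed genes, all tested, 7 were called higher and 1 lower, against 4.01% and 2.97% of all genes tested, with a median difference of 0.067 against −0.0014 over all genes. The drivers were mixed, with 3 of the 7 driven by sgIGF2BP2, 2 by sgAAVS1 and 2 by opposite moves of both lines. The lower gene was IER5L, an immediate early response gene, which rose in both lines, by 0.90 in sgIGF2BP2 and by 1.23 in sgAAVS1 cells.

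DUSP6, a phosphatase that inactivates the kinase ERK, stood in sgIGF2BP2 cells at 116, 108, 107 and 116 CPM with DMSO and 148, 137, 139 and 144 CPM with Dox. In the sgAAVS1 line the values were 146, 133, 132 and 129 CPM with DMSO and 110, 102, 105 and 109 CPM with Dox. Dox therefore raised it in one line and lowered it in the other, without overlap in either, and the difference was 0.69 ± 0.057 (SE, edgeR adjusted p = 8.91e-15). With DMSO, all 4 sgIGF2BP2 libraries lay below all 4 sgAAVS1 libraries. With Dox the order was the reverse.

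DUSP1, a phosphatase of several MAP kinases, showed the same opposite moves, with effects of 0.35 ± 0.078 and −0.44 ± 0.083 and a difference of 0.79 ± 0.11 (SE, edgeR adjusted p = 1.05e-06). DUSP5, which acts on ERK in the nucleus, was driven by sgIGF2BP2, at 54.6, 53.9, 52 and 59.5 CPM with DMSO and 87.8, 72.1, 82.7 and 90.9 CPM with Dox. The sgAAVS1 libraries held it at 57.5, 57.4, 62.8 and 60.2 CPM with DMSO and 54.5, 47.7, 48.2 and 55.4 CPM with Dox, without overlap and in the other direction, and the difference was 0.80 ± 0.082 (SE, edgeR adjusted p = 2.63e-11). SPRY2 and the transcription factor KLF6 were also driven by sgIGF2BP2, with differences of 0.47 ± 0.11 (SE, edgeR adjusted p = 0.00441) and 0.47 ± 0.10 (SE, edgeR adjusted p = 0.00186). With siRNA, the effects on DUSP6, DUSP5 and DUSP1 were −0.21, −0.40 and −0.23, each past the threshold and opposite in sign to the effect of Dox in sgIGF2BP2 cells.

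MYC, a growth-promoting transcription factor whose mRNA is a reported IGF2BP target, was driven by the sgAAVS1 line. It stood there at 398, 386, 382 and 394 CPM with DMSO and 311, 269, 289 and 307 CPM with Dox, without overlap. In sgIGF2BP2 cells it stood at 363, 355, 362 and 369 CPM with DMSO and 450, 367, 415 and 418 CPM with Dox, with overlap, and the difference was 0.59 ± 0.059 (SE, edgeR adjusted p = 1.51e-11). Dox changed it by 0.19 in sgIGF2BP2 cells (edgeR adjusted p = 0.000562), whereas siRNA lowered it by 0.50. MYC was the only one of 23 tested genes on a list of 30 reported IGF2BP target mRNAs that was called in the difference, a share near the 6.97% of all genes. The list's median difference was −0.0013, against −0.0014 over all genes. HMGA1, a chromatin protein and reported target, fell in both lines, by 0.30 in sgIGF2BP2 and 0.36 in sgAAVS1 cells, with a difference of 0.059 ± 0.050 (SE, edgeR adjusted p = 0.536).

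Contractile genes were also among the lower genes, and the largest of these differences were driven by the sgAAVS1 line. Of 20 tested genes on a list of 24 contractile genes and targets of the factors SRF and YAP, 6 were called lower, 4 of them driven by sgAAVS1, and 2 higher, ACTA2 and CCN1, against 2.97% lower and 4.01% higher among all genes tested, with a median difference of −0.088. TAGLN, the actin-binding protein transgelin, stood in sgAAVS1 cells at 13.9, 15.2, 14.4 and 13.8 CPM with DMSO and 30.3, 28.2, 30.4 and 24.9 CPM with Dox. In sgIGF2BP2 cells it stood at 13.4, 15.1, 13.6 and 12.5 CPM with DMSO and 15.3, 18.2, 16.7 and 15.9 CPM with Dox. It rose in both lines without overlap, by less in sgIGF2BP2 cells, and the difference was −0.71 ± 0.11 (SE, edgeR adjusted p = 1.01e-05).

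In sgIGF2BP3 cells TAGLN stood at 15.4, 15.3, 13.4 and 14.3 CPM with DMSO and 28.4, 27.5, 30.2 and 27.8 CPM with Dox. Its effect there was 0.96 ± 0.076, close to the 0.99 ± 0.077 of the sgAAVS1 line and far from the 0.28 ± 0.082 of the sgIGF2BP2 line. CALD1, which encodes caldesmon, a regulator of actomyosin, stood in sgAAVS1 cells at 31.5, 32, 33.4 and 33 CPM with DMSO and 56, 53.9, 57.8 and 57.5 CPM with Dox. With 36.1, 39.1, 38.3 and 34 CPM with DMSO and 46.6, 42.4, 46.2 and 44.5 CPM with Dox in sgIGF2BP2 cells, it also rose in both lines, and the difference was −0.51 ± 0.077 (SE, edgeR adjusted p = 2.80e-06). Its effect in sgIGF2BP3 cells was 0.54 ± 0.054. MYL9, a myosin light chain, followed the same pattern, with effects of 0.14 in sgIGF2BP2, 0.48 in sgAAVS1 and 0.35 in sgIGF2BP3 cells. For these 3 genes the ratio rule names sgAAVS1 as the driver, while sgIGF2BP2 was the line in which the effect was smallest among the 3 lines. With siRNA against IGF2BP2, TAGLN rose by 0.43 and CALD1 by 0.70, each past the threshold and opposite in sign to the difference. MYL9 had an effect of 0.12 with siRNA and did not pass (edgeR adjusted p = 0.0535). TAGLN shares 446 exon bases with PCSK7 on the opposite strand.

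Among proteases, PLAU, the urokinase that activates plasminogen, stood in sgIGF2BP2 cells at 13.1, 12.7, 12.6 and 14.4 CPM with DMSO and 22.3, 22.3, 24.1 and 23.2 CPM with Dox. In sgAAVS1 cells it stood at 13, 12.6, 12.4 and 13.9 CPM with DMSO and 8.97, 9.98, 9.03 and 12 CPM with Dox. It rose in the former and fell in the latter without overlap, for a difference of 1.18 ± 0.13 (SE, edgeR adjusted p = 1.76e-10), and it was driven by sgIGF2BP2. In sgIGF2BP3 cells the effect was 0.44 ± 0.087, and with siRNA it was −0.64 ± 0.090. MMP1, a collagenase, was driven by sgAAVS1, where it fell from 10.4 ± 1.17 to 6.87 ± 0.553 CPM (means ± SD, n = 4), and its difference was 0.81 ± 0.17 (SE, edgeR adjusted p = 0.000756).

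Several genes outside the lists had large differences driven by sgIGF2BP2. PDP1, a phosphatase that activates pyruvate dehydrogenase, stood in that line at 42.1, 34.7, 38.5 and 38.7 CPM with DMSO and 65.2, 59.6, 55.6 and 67.2 CPM with Dox. In the sgAAVS1 line the values were 45.2, 40.6, 37.5 and 38.2 CPM with DMSO and 33, 31, 29 and 33.9 CPM with Dox, so that Dox moved it in opposite directions without overlap, and its difference was 1.03 ± 0.094 (SE, edgeR adjusted p = 5.38e-13). With siRNA PDP1 fell by 0.75 on the log2 scale. FOXD1, a forkhead transcription factor, stood in sgIGF2BP2 cells at 135, 133, 143 and 168 CPM with DMSO and 244, 227, 214 and 257 CPM with Dox, and its difference was 0.84 ± 0.10 (SE, edgeR adjusted p = 3.44e-09). FOXD1 rose in sgIGF2BP3 cells as well, by 0.61. PRDM1, the transcriptional repressor BLIMP1, and REEP6, a protein of the endoplasmic reticulum, had differences of 1.10 ± 0.22 (SE, edgeR adjusted p = 0.000361) and 0.97 ± 0.18 (SE, edgeR adjusted p = 0.000214) at levels under 10 CPM.

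TMSB4X, the actin-binding thymosin, had a difference of 0.91 ± 0.23 (SE, edgeR adjusted p = 0.00697), with a lower start in sgIGF2BP2 cells, at 2.57, 2.83, 4.03 and 2.58 CPM with DMSO against 4.32, 5.21, 4.42 and 4.12 CPM in sgAAVS1 cells. The rise in sgIGF2BP2 cells thus began below the control line. Genes called higher outside the segment started lower in sgIGF2BP2 cells by a median of 0.066 on the log2 scale, and genes called lower started higher by a median of 0.056. These starting values use the DMSO libraries that also enter the difference, so the 2 are not independent.

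Among genes set by the sgAAVS1 line were CLCF1, a cytokine, and TLR3, a receptor for double-stranded RNA. CLCF1 stood in sgAAVS1 cells at 17.1, 17.9, 15.5 and 17.1 CPM with DMSO and 28.9, 28.3, 26.4 and 25.6 CPM with Dox. In sgIGF2BP2 cells, at 16.4, 17.2, 16.4 and 17 CPM with DMSO and 17.8, 16, 18.2 and 18.8 CPM with Dox, the groups overlapped, and the difference was −0.62 ± 0.12 (SE, edgeR adjusted p = 0.000214). TLR3 had a difference of −0.82 ± 0.22 (SE, edgeR adjusted p = 0.0113), and C11orf68 and C6orf226 differences of 0.49 ± 0.077 (SE, edgeR adjusted p = 9.97e-06) and 0.70 ± 0.22 (SE, edgeR adjusted p = 0.0370). The C6orf226 call was lost in 12 of the 26 alternatives, 10 of which left out 1 library each. By the ratio rule both lines contributed, in opposite directions, to the netrin receptor UNC5A, the adaptor protein BCAR3, the transcription factor TFAP2A and ATP1B1, a subunit of the sodium pump. Their differences were 1.08 ± 0.20, 0.78 ± 0.14, −0.44 ± 0.12 and −0.46 ± 0.094 (± SE), with edgeR adjusted p from 9.25e-05 for BCAR3 to 0.0131 for TFAP2A. The Dox effect was called in both lines for UNC5A, BCAR3 and ATP1B1. For TFAP2A it was called in sgAAVS1 cells (0.27) but not in sgIGF2BP2 cells (−0.17, edgeR adjusted p = 0.166). ATP1B1 shares 192 exon bases with NME7 on the opposite strand.

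Chromosome 17 from SPOP to the end of its long arm was set apart, because neighbouring genes differed together there. Of 251 genes tested in it, 87 were called higher and 1, SUMO2, lower, which is 35.1% called, against 6.34% outside. The median difference was 0.20, from a median Dox effect of 0.021 in sgIGF2BP2 and −0.18 in sgAAVS1 cells, and the same genes had a median of 0.012 in sgIGF2BP3 cells. The sgAAVS1 line drove 56 of the 88, both lines in opposite directions 23, and sgIGF2BP2 9. In sgAAVS1 cells 131 of the 251 fell and 1 rose, against 8.68% lower and 7.25% higher among all genes tested in that line. On chromosome 17 before SPOP, 444 genes were tested, 23 were higher and 4 lower, and the median difference was 0.061.

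SPOP, the substrate adaptor of a CUL3 ubiquitin ligase, lies at chr17:49598884-49678234, reverse strand. The sgAAVS1 libraries held it at 38.9, 36.5, 35.7 and 35.8 CPM with DMSO and 11.4, 13.1, 10.1 and 11.1 CPM with Dox. In sgIGF2BP2 cells it stood at 36.7, 36.3, 40.1 and 37 CPM with DMSO and 41.8, 46.3, 39.7 and 42.4 CPM with Dox. The Dox libraries of sgAAVS1 lay far below all others, and the difference was 1.86 ± 0.10 (SE, edgeR adjusted p = 1.30e-24), driven by sgAAVS1. A second large fall in that segment, chosen after its values were seen, was SOX9, a transcription factor of intestinal stem cells, with a difference of 1.99 ± 0.40 (SE, edgeR adjusted p = 0.000581) at 1.84 ± 0.409 to 0.644 ± 0.153 CPM in sgAAVS1 cells (means ± SD, n = 4). Near the chromosome end DCXR, a carbonyl reductase, stood in sgAAVS1 cells at 74.6, 71, 70.5 and 67.3 CPM with DMSO and 51.5, 51.3, 55.5 and 52 CPM with Dox, and its difference was 0.56 ± 0.075 (SE, edgeR adjusted p = 1.79e-07). CUEDC1 and GDPD1 had differences of 0.59 ± 0.11 (SE, edgeR adjusted p = 0.000361) and 0.67 ± 0.21 (SE, edgeR adjusted p = 0.0369), and the GDPD1 call was lost in 12 of the 26 alternatives. By the ratio rule both genes had opposite moves of both lines. The Dox effect was called in both lines for CUEDC1 and in sgIGF2BP2 cells alone for GDPD1.

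Whether a change in DNA copies moved with these RNA levels was not tested, since the files hold RNA counts only. A guide match in the SPOP promoter with at most 3 mismatches was not found for either AAVS1 guide, and gene bodies were searched only as transcripts.

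Segments beside the intended cut sites were described in the same way. From IGF2BP2 to the end of chromosome 3q, 49 genes were tested, 0 were higher and 7, IGF2BP2 included, lower, which is 14.3% called, against 6.34% of the genes outside the chromosome 17 segment (3.32% higher, 3.02% lower). The median difference was −0.13. The median Dox effects were −0.079 in sgIGF2BP2 and 0.062 in sgAAVS1 cells. DGKG, a diacylglycerol kinase and near neighbour of IGF2BP2 at chr3:186105668-186362237, reverse strand, stood in sgIGF2BP2 cells at 28.3, 29.2, 29.5 and 28.4 CPM with DMSO and 23, 23.9, 29.6 and 24.9 CPM with Dox. In sgAAVS1 cells it stood at 27.9, 24.9, 27.7 and 28.7 CPM with DMSO and 34.7, 36.9, 33.1 and 34.4 CPM with Dox, and only these groups were apart. The difference was −0.55 ± 0.091 (SE, edgeR adjusted p = 1.84e-05), with opposite moves of both lines, and DGKG shares 164 exon bases with ETV5 on the same strand.

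The other 5 lower genes of that segment were ACAP2, DNAJB11, NCBP2, OPA1 and RFC4, with differences of −0.36, −0.28, −0.19, −0.22 and −0.25. From PPP1R12C to the end of chromosome 19q, 74 genes were tested, 3 were higher and 0 lower, a share near that background, with a median difference of 0.11. PPP1R12C itself, a phosphatase subunit whose start lies next to the first AAVS1 guide, had a Dox effect of −0.032 ± 0.045 in sgAAVS1 and 0.14 ± 0.044 in sgIGF2BP2 cells. Its difference was 0.17 ± 0.063 (SE, edgeR adjusted p = 0.0815).

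Stress pathways other than p53 had few calls, at or near the background of 6.97%. Of 30 tested genes of the integrated stress response 2 were called higher, SESN2 and SLC3A2, and SESN2 is also a p53 target. SESN2 stood at 6.21, 10.8, 6.68 and 6.45 CPM with DMSO and 9.20, 10.5, 14.1 and 11.2 CPM with Dox in sgIGF2BP2 cells, where replicate 2 with DMSO reached the Dox libraries, and its difference was 0.74 ± 0.17 (SE, edgeR adjusted p = 0.00332). Of 34 genes of the unfolded protein response 3 were lower, DNAJB11, ATF6 and SPCS3, and of 27 tested interferon response genes ISG20 was higher and IFIT5 lower. Each of these 5 genes and SLC3A2 lost its call in 9 to 16 of the alternatives. Of 17 tested NRF2 antioxidant genes HMOX1, the heme oxygenase, was higher, at 0.30 ± 0.065 (SE, edgeR adjusted p = 0.00160), and it rose in both lines. Among 28 nuclear genes of the respiratory chain and 13 mitochondrially encoded mRNAs, 0 were called by edgeR's test, 2 and 0 had an unadjusted p under 0.05, and DESeq2 called 0 as well.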

How the data were processed

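Poly(A) RNA of 40 libraries, in 10 groups of 4, was sequenced after s4U labelling with a directional kit, per the labels' protocols. The values are gene counts that the authors deposited as 1 table; bcl2fastq 2.20.0.422, STAR 2.7.5c and hg38 are named in the submitters' processing notes, and the counter, the annotation release and the use of strand are not given in the sources used here. Gene names, coordinates and exons came from GENCODE release 29 (GRCh38), promoters from RefSeq (GRCh38.p14).

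Counts were fitted with edgeR 4.0.16 (R 4.3.3): filterByExpr, TMM scaling, 1 quasi-likelihood fit of 10 group means over all 40 libraries, contrasts tested with glmQLFTest and Benjamini-Hochberg adjustment over 11428 genes, threshold 0.05. Each SE is the log2 fold change over the root of its F statistic. CPM are scaled by TMM library sizes. The fit was tested on simulated data first.

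Named genes were called and stood among the 8 largest differences in each direction driven by sgIGF2BP2, 4 by sgAAVS1, 3 by both lines and 5 of the chromosome 17 segment. These also averaged a log2 CPM of 2 or more and had Dox and DMSO libraries apart in a driving line. The 4 largest called of each list were named too, without these conditions on level and separation. Other genes were named as targets, neighbours or list members after their values were seen. A gene that the rule named is not reported here. The members and lists were chosen with earlier results of these data known. Alternatives were another scaling, scaling without the chromosome 17 segment, no filter, the 16 libraries alone, the replicate number as a block, a test against a change of 1.2-fold, thinning to the smallest total, a GC and length offset, DESeq2 1.42.0, other driver rules and leaving out each library.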

Additional observations from a re-analysis of the deposited data

Results flagged for a closer look

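For 50 named genes the effect of Dox differed between the sgIGF2BP2 and sgAAVS1 lines by edgeR's test of the difference itself. The values here are these differences on the log2 scale, with the adjusted p-values in the report for most. Driven by sgIGF2BP2 and higher were ACTA2 (1.18), PLAU (1.18), PRDM1 (1.10), PDP1 (1.03), REEP6 (0.97), BTG2 (0.92), TMSB4X (0.91), FOXD1 (0.84), DUSP5 (0.80), FDXR (0.74), SESN2 (0.74) and HMOX1 (0.30). Driven by that line and lower were IGF2BP2 (−1.44), KIF24 (−0.48), SLF1 (−0.48), FAM111B (−0.44), KIF14 (−0.44), POLE2 (−0.44), CEP55 (−0.43) and ANP32E (−0.42), and with smaller values IGF2BP3 (−0.29), BUB1B (−0.27), CCNA2 (−0.27) and MKI67 (−0.26).

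Driven by sgAAVS1 and higher were SPOP (1.86), MMP1 (0.81), C6orf226 (0.70), MYC (0.59), DCXR (0.56) and C11orf68 (0.49). Higher by opposite moves of both lines were UNC5A (1.08), DUSP1 (0.79), BCAR3 (0.78), DUSP6 (0.69), GDPD1 (0.67) and CUEDC1 (0.59). SPOP, DCXR, GDPD1 and CUEDC1, and FDXR above, lie in the chromosome 17 segment. Driven by sgAAVS1 and lower were TLR3 (−0.82), TAGLN (−0.71), CLCF1 (−0.62), CALD1 (−0.51) and MYL9 (−0.35). Lower by opposite moves of both lines were DGKG (−0.55), ATP1B1 (−0.46) and TFAP2A (−0.44). The differences of ISG20 (0.27), SLC3A2 (0.18), IFIT5 (−0.37), DNAJB11 (−0.28), ATF6 (−0.20) and SPCS3 (−0.19) passed the test as well, and each lost its call in 9 or more of the alternatives.

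In 9 of 204 sets of 4 libraries (a named gene in a group), 1 library lay far from the other 3 by Dixon's criterion, where chance alone gives about 1 in 20. Replicate 2 of sgIGF2BP2 with Dox was lowest for MKI67, at 347 CPM against 446 to 450 CPM, and highest for DCXR, at 84.5 CPM against 69.4 to 70.1 CPM. Replicate 2 of sgIGF2BP2 with DMSO stood above the others for SESN2, at 10.8 CPM against 6.21 to 6.68 CPM, and replicate 1 of that group below them for SLC3A2, at 188 CPM against 199 to 200 CPM. In sgAAVS1 cells with DMSO, replicate 4 stood apart for FAM111B (36.6 CPM, others 32.8 to 33.1) and CUEDC1 (17.2 CPM, others 19.8 to 20.1), and replicate 1 for ISG20 (48.5 CPM, others 46.2 to 46.4). With Dox, replicate 3 stood apart for DCXR (55.5 CPM, others 51.3 to 52.0) and replicate 1 for ISG20 (39.0 CPM, others 44.2 to 45.2).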

How the results depend on the processing

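For the named genes tabulated, no alternative run reversed the direction of a difference, whereas the balance of all calls turned from 458 higher and 339 lower to 335 and 378 with the GC and length offset. Replicate numbers did not pair the libraries: 24 same-numbered pairs had correlations of −0.039 to 0.24 (median 0.016), 5 of them over 0.1. With the replicate number as a block, 496 genes were higher and 383 lower. Tested against a change of 1.2-fold, 23 genes were higher and 2 lower (18 and 2 outside the chromosome 17 segment), driven by sgIGF2BP2 in 14, by sgAAVS1 in 2, by both in opposite directions in 4 and in the same direction in 0. Under that test 4 p53 targets were higher, 0 cell cycle genes lower, 1 contractile gene higher and 1 lower, and 4 MAPK genes higher and 0 lower. Within lines it called 117 genes in sgIGF2BP2, 50 in sgAAVS1, 8 in sgIGF2BP3 and 512 with siRNA.

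With a driver ratio of 1.5, 135 genes moved in opposite and 2 in the same direction in both lines, and with a ratio of 3, 40 in the same. By which line's effect was called these were 44 and 39. The same-direction count was 5 with the 16 libraries alone, 5 after thinning, 18 with the GC and length offset and 22 with that offset and the replicate block. Thinning left 8 cell cycle genes lower and 171 calls in sgIGF2BP3, and the 16 libraries alone gave 243 higher genes outside the segment. Contractile genes called higher were 1 with no filter, 16 libraries, thinning, DESeq2 or the offset. With the offset, and also with the block added, 1 p53 target and 2 MAPK genes were lower. The chromosome 17 median difference was 0.17 with no filter and 0.15 with the offset (0.15 with the block), that of 3q −0.091 with no filter, and that of 19q 0.066 with no filter and 0.043 with the offset (0.042 with the block). The cause was not tested for any of these, apart from the fewer counts left by thinning.

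Leaving out 1 library at a time gave 315 to 643 higher and 206 to 518 lower genes (245 to 545 and 206 to 516 outside the segment). The lines drove 224 to 393 (sgIGF2BP2), 98 to 305 (sgAAVS1), 128 to 354 (opposite moves) and 6 to 12 (same direction). Apart from the same-direction count, which was highest without replicate 2 of sgIGF2BP2 with Dox, these extremes came without replicate 2 or 4 of sgAAVS1 with DMSO or replicate 3 of sgIGF2BP2 with DMSO. Lists ranged from 15 to 18 (p53 higher), 8 to 13 (cell cycle lower), 1 to 2 and 4 to 6 (contractile higher and lower) and 6 to 7 (MAPK higher). Within lines 1857 to 2377 (sgIGF2BP2), 1293 to 2002 (sgAAVS1), 282 to 343 (sgIGF2BP3) and 4174 to 4289 genes (siRNA) were called. The median differences ran from 0.19 to 0.21 (17q), −0.16 to −0.11 (3q) and 0.081 to 0.13 (19q), and that of IGF2BP2 from −1.49 to −1.38. Of the named genes, 32 lost their call in the 1.2-fold test and 11 after thinning. At these depths the SE of the differences named in the report lies between 0.043 and 0.40, which limits how small a difference can pass.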
